A study of Homo sapiens with 4 samples.

Results

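The E2F and DP transcription factors were followed through 4 gene expression arrays of A549 cells. The members were *E2F1* to *E2F8*, *TFDP1* and *TFDP2*, taken by gene symbol. A probe was counted for a member if the RefSeq accession listed for it on the array belonged to that gene. This gave 15 probes of 10 genes, among 58201 probes on the array, of which 31104 could be matched to 22439 genes. A549 cells are an established line from a human lung adenocarcinoma. The cells of 1 array were transfected with *miR-486-5p* and those of 1 array with *miR-486-3p*, the strands that arise from the same precursor. The cells of the other 2 arrays received the transfection reagent alone, and these are called mock 1 and mock 2. The transfected ones are called the 5p array and the 3p array. RNAiMAX was the reagent in every group. The comparison asks how the genes of the E2F network stood after each strand. No array of a control miRNA was among the 4 samples, so the response to any transfected small RNA cannot be told apart from the response to the sequence of each strand. The time between transfection and RNA extraction is not given in the sources used here.

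E2F proteins bind the promoters of genes for DNA replication and cell division, and most of them do so as dimers with a DP protein. The activators, *E2F1* to *E2F3*, raise transcription at entry into S phase and are held in check by the retinoblastoma protein. *E2F4* and *E2F5* act mainly as repressors with the pocket proteins in resting cells, *E2F6* represses through Polycomb group proteins, and the atypical members *E2F7* and *E2F8* bind DNA without a DP partner and repress E2F targets, *E2F1* among them. Several E2F genes are themselves E2F targets.

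The promoters of the members were searched for letters that E2F proteins are known to bind. The letters were TTTCCCGC, TTTCGCGC, TTTGCCGC and TTTGGCGC, read on both strands, in RefSeq promoters of 300 bases (250 before and 50 after the start of the gene, assembly GRCh38.p14). Such letters were found in 3.31% of all 35116 promoters. Of the 10 members, 8 had a promoter in the table, and *E2F5* and *E2F8* had none. A match was found for *E2F1*, *E2F2*, *E2F3* and *TFDP1*, and none in these windows for *E2F4*, *E2F6*, *E2F7* and *TFDP2*. Counted by promoter, as in the share above, 4 of the 11 promoters of the members held a match. The matching stretches are listed below, and their part in the changes on the arrays was not tested. Each is written 5′ to 3′ on the strand of its gene, with the matching letters in capitals.
*E2F1*, upstream match: tggctctttcGCGGCAAAaaggatttgg
*E2F1*, downstream match: gcaaaaaggaTTTGGCGCgtaaaagtgg
*E2F2*: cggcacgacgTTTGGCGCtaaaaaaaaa
*E2F3*: tgaaaagccgGCGGGAAAtccgagtttc
*TFDP1*: ggcgccgaagGCGCGAAAaggcgcgcag

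In that assembly the *E2F1* stretches lie at chr20:33686401-33686428 and chr20:33686388-33686415 on the minus strand and overlap each other. Their matches begin at −33 and −20, counted from the start of the gene. The *E2F2* stretch lies at chr1:23531258-23531285 on the minus strand, with the match beginning at −42. The *E2F3* stretch lies at chr6:20401816-20401843 on the plus strand, with the match at −53 in the first of 2 promoters of this gene, and the *TFDP1* stretch lies at chr13:113584623-113584650 on the plus strand, with the match at −120. A match is a description of the letters, and binding was not measured.

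Each array measured the Cy3-labeled RNA of 1 sample. All levels below are the log2 of the background-corrected signal of a probe minus the 75th percentile of the same array, so that 0 stands for a signal at that percentile. Between 30690 and 31516 probes per array were well above background, and no spot was saturated. The tests were made with limma on 33498 probes, with adjustment over all of them and a threshold of 0.05, and a gene was called if at least 1 of its probes passed. With 1 array per strand, the spread in these tests comes from the mock arrays alone, on the assumption that the transfected arrays vary to the same extent. Whether the mock arrays came from separate cultures is not stated, so the p-values measure the spread between these arrays, which may be technical. The SD of the difference between the mock arrays was 0.196 over 28246 probes. Among the epithelial markers, *KRT8*, *KRT18* and *KRT19* were well above background on all 4 arrays, whereas *EPCAM* was on 2 and *CDH1* on none. The summed signal of the epithelial list, in multiples of the 75th percentile, was 212 and 214 on the mock arrays and 153 to 159 on the transfected arrays, and its part in the results was not tested. For endothelial cells *PECAM1* was on no array, whereas *CDH5* and 1 of 2 probes of *VWF* were well above background on all 4. The summed signal of that list was 0.561 to 0.644. For fibroblasts *LUM* and *COL3A1* were on no array, whereas 1 of 2 probes of *DCN* was on all 4. That probe was 1.89 higher after *miR-486-3p* (limma adjusted p = 0.0397). The summed signal of the list was highest after *miR-486-3p*, at 0.321 against 0.0870 to 0.126. For blood cells *CD79A*, *CD3E* and 2 of 5 probes of *PTPRC* were on all 4 arrays. Their list had a sum of 7.12 to 7.98, most of it from 1 probe of *CD79A*.

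Most members fell after *miR-486-3p*, and fewer passed the test after *miR-486-5p*. After *miR-486-5p*, 3 of the 10 members were called lower (*E2F1*, *E2F2* and *E2F8*) and 0 higher. Among all 16024 genes tested in that comparison, 6.79% were called lower and 3.52% higher. On the 3p array, 7 members were called lower (*E2F1*, *E2F2*, *E2F4*, *E2F7*, *E2F8*, *TFDP1* and *TFDP2*) and 2 higher (*E2F5*, and *E2F6* on 1 of its 3 probes), where 31.8% of 16446 genes were called lower and 32.2% higher. The median difference of the 10 members from the mock mean was −0.63 for the 5p array and −1.20 for the 3p array, against 0.03 and 0.06 over all genes. Both comparisons use the same mock arrays and are not independent of each other. The calls after *miR-486-5p* lay just inside the threshold, all with a limma adjusted p of 0.0475. Without a filter on dim probes, or on the authors' log2 values, limma called 0 genes of any kind after *miR-486-5p*, members included. At an unadjusted p under 0.05 it placed 7 members lower and 1 higher, with or without the filter. The same held for 25.6% of all genes (lower) and 23.5% (higher) with the filter, and for 19.9% and 21.9% without it.

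The mock arrays were close to each other for these genes. The largest difference between them among the 15 probes was 0.23, for *E2F4*, and it was over 0.2 for 2 probes. On both transfected arrays, all 15 probes lay outside the range of the mock arrays, as did 87.4% of all probes in use on the 5p array and 93.1% on the 3p array. Precision is limited throughout by the number of arrays. In RNA from whole cultures, fewer cells with a transcript and less of it per cell cannot be told apart.

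**Figure D1:**
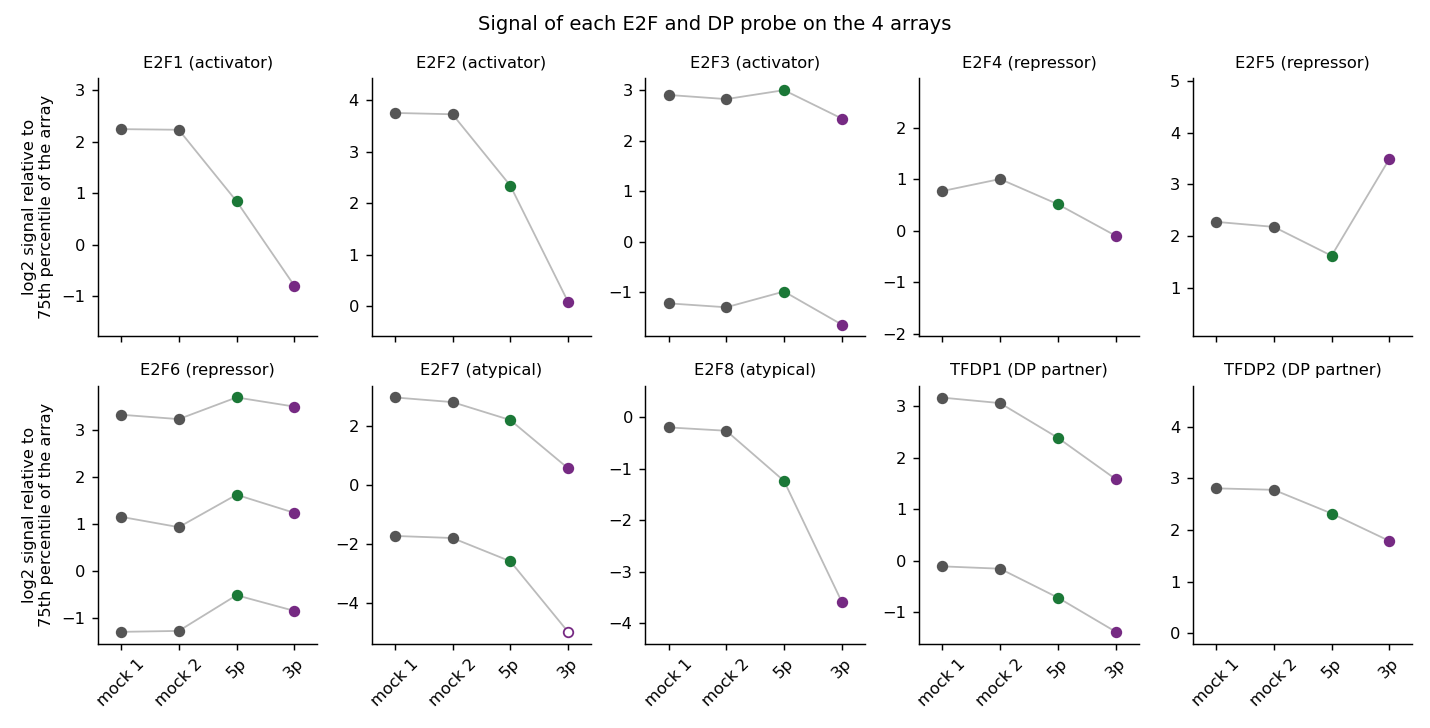
Level of each E2F and DP probe on the 4 arrays (log2 of the signal minus the 75th percentile of the array), with 1 panel per gene and 1 line per probe. Gray points are the mock arrays, green *miR-486-5p* and purple *miR-486-3p*. The open circle marks the *E2F7* probe that was not well above background after *miR-486-3p*. Levels of different probes are not comparable, and the panels differ in the position of the axis. *E2F1*, *E2F2*, *E2F7* and *E2F8* step down from mock to *miR-486-5p* to *miR-486-3p*, whereas *E2F5* is highest after *miR-486-3p*, at 3.49.

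Among the activators, *E2F1* and *E2F2* fell after both strands, and *E2F3* did not pass the test against mock after either. *E2F1*, which drives genes of DNA replication and can also trigger cell death, was at 2.25 on mock 1, 2.23 on mock 2, 0.85 on the 5p array and −0.79 on the 3p array. Both transfected arrays were below the mock arrays, and the *miR-486-3p* array was the lowest. The difference from mock was −1.39 after *miR-486-5p* (standard error, SE, 0.0875, limma adjusted p = 0.0475), a level 2.62-fold lower. It was −3.03 after *miR-486-3p* (limma adjusted p = 0.00762), a level 8.16-fold lower, and *E2F1* retained 12.3% of its mock signal.

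*E2F2*, the activator closest to *E2F1* in function, was at 3.75 and 3.72 on the mock arrays, 2.34 on the 5p array and 0.09 on the 3p array. The order of the arrays was the same as for *E2F1*, with no overlap between the mock and transfected arrays. The difference was −1.40 after *miR-486-5p* (SE 0.0883, limma adjusted p = 0.0475) and −3.65 after *miR-486-3p* (limma adjusted p = 0.00762). The latter was a level 12.5-fold lower, the lowest difference among the members except with quantile normalization or on the authors' values, where *E2F8* was lower.

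*E2F3*, the third activator, was measured by 2 probes. Its brighter probe was at 2.91 and 2.83 on the mock arrays, 3.00 on the 5p array and 2.44 on the 3p array. The other was at −1.23 and −1.30 on the mock arrays, −0.99 on the 5p array and −1.65 on the 3p array. On both probes, *miR-486-5p* was thus above the mock arrays and *miR-486-3p* below them. The differences were 0.14 and 0.27 after *miR-486-5p* (limma adjusted p = 0.384 and 0.162). They were −0.43 and −0.38 after *miR-486-3p* (limma adjusted p = 0.050005 and 0.0601), the first just outside the threshold. With median scaling the mean of the probes was −0.78 after *miR-486-3p* and the gene was called (lowest limma adjusted p of its probes = 0.0138), as it was with quantile normalization, normexp, detection on all 4 arrays, the authors' values or an intensity trend.

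The repressor members did not share a direction. *E2F4*, the most abundant E2F of many resting cells, was at 0.77 and 1.00 on the mock arrays, 0.51 on the 5p array and −0.10 on the 3p array. Its mock arrays were the furthest apart of any member probe. The difference of −0.37 after *miR-486-5p* did not pass (SE 0.15, limma adjusted p = 0.194). After *miR-486-3p* it fell by 0.98 (limma adjusted p = 0.0250), a level 1.98-fold lower. That call was lost when no filter on dim probes was applied (limma adjusted p = 0.0611).

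*E2F5*, which pairs mainly with the pocket protein RBL2, was the single member with a rise of over 0.5 after *miR-486-3p*. It was at 2.27 and 2.18 on the mock arrays, 1.62 on the 5p array and 3.49 on the 3p array. The mock arrays lay between the transfected arrays. The difference was −0.61 after *miR-486-5p*, which did not pass (SE 0.101, limma adjusted p = 0.0643), and 1.27 after *miR-486-3p* (limma adjusted p = 0.0104), a level 2.41-fold higher. The change after *miR-486-3p* passed in each of the 8 other limma fits, with values between 0.89 and 1.46.

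*E2F6*, which needs no pocket protein, was measured by 3 probes, of which the dimmest is listed for another transcript. Its brightest probe was at 3.32 and 3.23 on the mock arrays, 3.69 on the 5p array and 3.5 on the 3p array. The second was at 1.15 and 0.93 on the mock arrays, 1.62 on the 5p array and 1.24 on the 3p array. The dimmest was at −1.30 and −1.28 on the mock arrays, −0.52 on the 5p array and −0.85 on the 3p array. All 3 were higher on both transfected arrays than on either mock array, and highest after *miR-486-5p*. The differences after *miR-486-5p* were 0.41, 0.58 and 0.77, and none passed (limma adjusted p = 0.0984, 0.103 and 0.0511). After *miR-486-3p* they were 0.22, 0.20 and 0.44, and only the last, of the dimmest probe, passed (limma adjusted p = 0.168, 0.331 and 0.0400). With median scaling the mean of the probes after *miR-486-3p* was −0.09, on the other side of 0, and was not called.

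Both atypical members fell after *miR-486-3p*. *E2F7* was measured by 2 probes. The brighter was at 2.98 and 2.82 on the mock arrays, 2.21 on the 5p array and 0.57 on the 3p array. The dimmer was at −1.73 and −1.80 on the mock arrays and −2.59 on the 5p array, and was not well above background on the 3p array, at −4.99. Both probes had the transfected arrays below the mock arrays in the same order. The differences of −0.69 and −0.83 after *miR-486-5p* did not pass (limma adjusted p = 0.0680 and 0.0513). After *miR-486-3p* the brighter probe fell by 2.33 (SE 0.121, limma adjusted p = 0.00774), a level 5.02-fold lower. The dimmer one was at least 6.18-fold lower, a bound set by the lowest signal of any probe well above background on that array. The limma test used its measured signal instead, a difference of −3.23 (limma adjusted p = 0.00762).

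*E2F8*, the closest relative of *E2F7*, was at −0.20 and −0.26 on the mock arrays, −1.24 on the 5p array and −3.58 on the 3p array. Both transfected arrays were below the mock arrays. The difference was −1.01 after *miR-486-5p* (SE 0.0937, limma adjusted p = 0.0475) and −3.35 after *miR-486-3p* (limma adjusted p = 0.00762), a level 10.2-fold lower. The signal of *E2F8* was dim on the *miR-486-3p* array, at 7.77 before scaling against 95.2 and 99.5 on the mock arrays. The normexp background correction adds an offset of 50 to every signal. With it, the difference after *miR-486-3p* was −1.21 for *E2F8* and −1.23 for the mean of the *E2F7* probes (−2.48 without it). Both were called, but calls in that fit are a weak check, since it also called *E2F3* at −0.29. After *miR-486-5p* the difference was −0.59 for *E2F8* and −0.45 for *E2F7* under that correction.

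The DP partners fell after *miR-486-3p* by less than *E2F1*, *E2F2*, *E2F7* and *E2F8* did. *TFDP1*, the main partner of the E2F proteins, was measured by 2 probes. The brighter was at 3.16 and 3.06 on the mock arrays, 2.38 on the 5p array and 1.58 on the 3p array. The dimmer was at −0.11 and −0.16 on the mock arrays, −0.72 on the 5p array and −1.38 on the 3p array. The order of the arrays was the same on both. The differences of −0.73 and −0.58 after *miR-486-5p* did not pass (limma adjusted p = 0.0567 and 0.0606). After *miR-486-3p* they were −1.53 and −1.24 (limma adjusted p = 0.00900 and 0.00944), levels 2.88-fold and 2.37-fold lower.

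*TFDP2*, the other partner, was at 2.81 and 2.78 on the mock arrays, 2.32 on the 5p array and 1.79 on the 3p array. Again both transfected arrays were below the mock arrays. The difference was −0.47 after *miR-486-5p*, which did not pass (SE 0.0886, limma adjusted p = 0.0730). After *miR-486-3p* it was −1.01 (limma adjusted p = 0.0115), a level 2.01-fold lower.

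**Figure D2:**
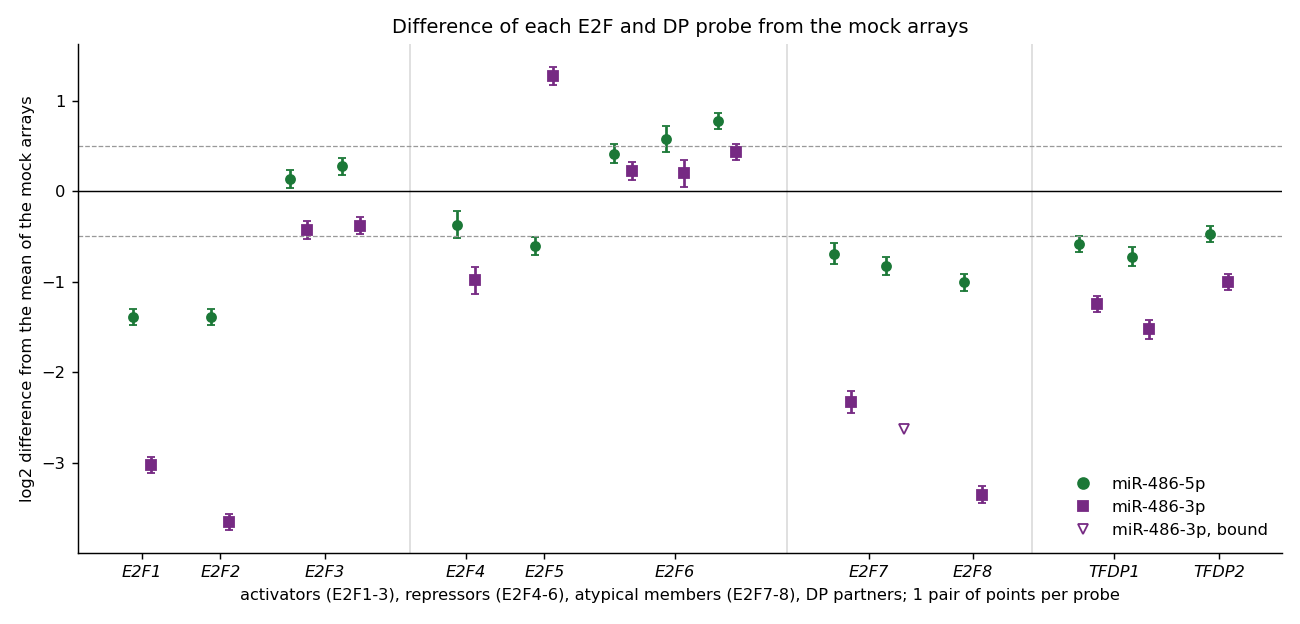
Log2 difference of each of the 15 probes from the mock mean, after *miR-486-5p* (green circles) and *miR-486-3p* (purple squares), with the limma standard error as bars. The open triangle is a bound, and the dashed lines mark 0.5 and −0.5. Purple points reach −3.65 for *E2F2*, and *E2F5* is the one gene with a purple point above 0.5.

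Seen by class, the activators and the atypical members held the lowest values. The median difference of the 3 activators was −1.39 on the 5p array and −3.03 on the 3p array, with *E2F3* at 0.20 and −0.40 (mean of its probes) apart from the rest. The medians of the 2 atypical members were −0.88 and −2.91, and those of the 2 DP partners were −0.56 and −1.20. The 3 repressors had medians of −0.37 and 0.28, with a range after *miR-486-3p* from −0.98 to 1.27. In order, the genes after *miR-486-3p* were *E2F2*, *E2F8*, *E2F1*, *E2F7*, *TFDP1*, *TFDP2*, *E2F4*, *E2F3*, *E2F6* and *E2F5*. *E2F8* came first with quantile normalization or on the authors' values, and after *E2F2*, *E2F1* and *E2F7* with normexp. *TFDP2* and *E2F4* differed by less than the standard error of either. The order therefore did not follow the classes, since the activator *E2F3* stood among the repressors. With classes of 2 or 3 genes, no test was made between them. Whether the order was tied to the promoter letters shown above was not tested. Of the members called lower after *miR-486-3p*, *E2F1*, *E2F2* and *TFDP1* held them, *E2F4*, *E2F7* and *TFDP2* did not, and *E2F8* was not searched, while *E2F3* held them and was not called.

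By size alone, 6 members were below −0.5 after *miR-486-5p* and 1 (*E2F6*) was above 0.5, where 15.9% and 13.8% of all genes were. After *miR-486-3p*, 7 were below −0.5 and 1 (*E2F5*) was above 0.5, where 27.2% and 30.4% of all genes were. Between the mock arrays, 1.52% differed by over 0.5 in either direction, among the 14960 genes with probes well above background on all 4 arrays, a brighter set than the 16024 and 16446 genes behind the other shares.

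The strands were compared with each other in the same fit. After *miR-486-3p*, 7 members were lower than after *miR-486-5p* (*E2F1*, *E2F2*, *E2F3*, *E2F7*, *E2F8*, *TFDP1* and *TFDP2*) and 1 was higher (*E2F5*), where 27.4% and 26.7% of 16561 genes were called. The difference was −1.64 for *E2F1* (limma adjusted p = 0.0121), −2.25 for *E2F2* and −2.35 for *E2F8* (limma adjusted p = 0.0119 for both). For *E2F7* it was −1.64 on the brighter probe (limma adjusted p = 0.0147). With the normexp correction these differences were smaller, at −1.04 for *E2F1* and −1.63 for *E2F2*. They were −0.61 for *E2F8* and −0.79 for the mean of the *E2F7* probes. All were called in that fit, but so was *E2F6* at −0.22, so these calls are a weak check. The smallest called difference between the strands was that of *TFDP2*, at −0.53 (limma adjusted p = 0.0427). *E2F3* was lower after *miR-486-3p* on both probes, by −0.56 and −0.66 (limma adjusted p = 0.0454 and 0.0349), and *E2F5* was 1.88 higher (limma adjusted p = 0.0121). *E2F4* at −0.61 (limma adjusted p = 0.0824) and the 3 probes of *E2F6*, at −0.19 to −0.38, did not pass. Without a filter on dim probes, the calls of *E2F3*, *TFDP1* and *TFDP2* were lost, and quantile normalization also lost that of *TFDP2*.

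The genes whose pattern over the 4 arrays was nearest to that of *E2F1* and *E2F8* were taken among 13470 genes with every probe in use well above background on all arrays. Likeness was the Euclidean distance between log2 levels after subtraction of the mock mean of each gene. Nearest to *E2F1* were *H4C2*, a histone gene, *G0S2*, a regulator of fat breakdown, and *RAD54L*, a gene of DNA repair, at distances of 0.0586, 0.0960 and 0.180. Nearest to *E2F8* were *CCNB2* and *CCNB1*, the B-type cyclins of mitosis, and the phosphatase gene *CDKN3*, at 0.0822, 0.0851 and 0.110. With 4 arrays these distances describe the pattern and carry no test.

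The pocket proteins, to which E2F proteins bind, split on the 3p array, where 1 of the 3 genes fell past the limma threshold and 2 rose. By the same test 31.8% of all genes fell and 32.2% rose, so both directions were common and the split does not set these genes apart. *RB1* was at 2.95 and 2.82 on the mock arrays, 3.17 on the 5p array and 3.49 on the 3p array, above the mock arrays on both transfected arrays. It was 0.60 higher after *miR-486-3p* (limma adjusted p = 0.0344), a call that was lost with median scaling, where the difference was 0.23. *RBL2*, the pocket protein of resting cells, was at 0.49 and 0.32 on the mock arrays, 0.90 on the 5p array and 1.75 on the 3p array, a difference of 1.34 after the latter (limma adjusted p = 0.0121). *RBL1*, the pocket protein of cycling cells, fell after *miR-486-3p* by 1.43 and 1.45 on its 2 probes (limma adjusted p = 0.0115 and 0.00840). With the normexp correction, the mean of the *RBL1* probes was −0.39 in place of −1.44. It passed in that fit, where calls are a weak check. After *miR-486-5p* none of the 3 pocket protein genes passed, with values of 0.28 for *RB1*, −0.36 for *RBL1* and 0.49 for *RBL2*.

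The MuvB core joins E2F4 and the pocket proteins in resting cells and B-MYB (*MYBL2*) or FOXM1 in dividing cells. Of its 8 listed genes, 1 was called lower after *miR-486-5p* (*FOXM1*) and 0 higher, where 6.79% and 3.52% of all genes were. After *miR-486-3p* 5 were called lower (*LIN9*, *LIN54*, *RBBP4*, *MYBL2* and *FOXM1*) and 2 higher (*LIN37* and *DYRK1A*). Over all genes these shares were 31.8% and 32.2%. The probes of *LIN9* had limma adjusted p of 0.0173 and 0.0669. Those of *DYRK1A* had 0.0333, 0.0485 and 0.0956, the last with a difference of −0.27. The median differences of the list were −0.28 and −0.69. *FOXM1*, a transcription factor of mitotic genes, had the lowest value for both strands, at −0.90 (limma adjusted p = 0.0492) and −3.79 (limma adjusted p = 0.00762), a level 13.8-fold lower after *miR-486-3p*. *LIN37*, a core subunit, had the highest, at 0.69 (limma adjusted p = 0.0533) and 0.62 (limma adjusted p = 0.0221), and the latter was 0.25 and not called with median scaling.

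The Polycomb complex through which *E2F6* acts had list medians near those of all genes. Of its 9 listed genes, 1 was called higher after *miR-486-5p* (*RING1*) and 0 lower, where 3.52% and 6.79% of all genes were. After *miR-486-3p* 3 were called higher (*MAX*, *RYBP* and *YAF2*) and 2 lower (*PCGF6* and *CBX3*). Over all genes these shares were 32.2% and 31.8%. The probes of *YAF2* had limma adjusted p of 0.0260 and 0.720, and those of *CBX3* 0.0349 and 0.0696. The medians were 0.18 and 0.08, against 0.03 and 0.06. *PCGF6*, a subunit that sets the identity of the complex, was lowest at −0.55 and −1.35, the latter called (limma adjusted p = 0.0114). *RING1*, an enzyme of histone H2A ubiquitination, was 0.86 higher after *miR-486-5p* (limma adjusted p = 0.0485), and *MAX*, a DNA-binding subunit, was 1.14 higher after *miR-486-3p* (limma adjusted p = 0.0096 to 0.0177 over 3 probes).

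Among the kinases that free E2F from the retinoblastoma protein and their inhibitors, 12 genes were listed. After *miR-486-5p* 1 was called lower (*CDKN2D*, −0.91, limma adjusted p = 0.0488) and 0 higher, where 6.79% and 3.52% of all genes were. After *miR-486-3p* 6 were called lower and 4 higher (*CCND1*, *CCNE1*, *CDKN1A* and *CDKN1B*). Over all genes these shares were 31.8% and 32.2%. The list medians were −0.06 and −0.50. *CDK2*, the kinase partner of cyclin E, was lowest after *miR-486-3p*, at −2.08 (limma adjusted p = 0.00821), and −0.99 with the normexp correction. *CCNE1*, which encodes cyclin E1 and is a known E2F target, was at 3.10 and 3.07 on the mock arrays. It was at 2.63 on the 5p array and 4.53 on the 3p array, so that the mock arrays lay between the strands. It was 2.72-fold higher after *miR-486-3p* (1.44, limma adjusted p = 0.00849), and its −0.46 after *miR-486-5p* did not pass (limma adjusted p = 0.0750). *CCNE2*, the gene of cyclin E2, was instead lower after both strands, at −0.79 and −0.69 (mean of its 2 probes). After *miR-486-5p* neither probe passed, and after *miR-486-3p* 1 did (limma adjusted p = 0.0142 and 0.117). *CDKN1A*, the kinase inhibitor p21, had the highest value after *miR-486-5p*, at 0.76 (limma adjusted p = 0.0523). It was 0.48 higher after *miR-486-3p* (limma adjusted p = 0.0365), which with median scaling was 0.10 and not called.

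Genes of the degradation of E2F proteins and of their regulators numbered 3. After *miR-486-5p* 0 were called. By limma, 6.79% of all genes fell on the 5p array and 3.52% rose. After *miR-486-3p* 2 were called lower (*CCNF* and *SKP2*) and 1 higher (*FZR1*), with list medians of −0.03 and −1.36. On the 3p array 31.8% of all genes fell past the limma threshold and 32.2% rose, so both directions were common. The probe of *CCNF* was not well above background there, at −4.27, so its difference of −2.85 is a bound. *SKP2*, an F-box protein that removes inhibitors of cell cycle kinases, was at −0.03 and −1.36, the latter called (limma adjusted p = 0.0099) and −0.65 with the normexp correction. *FZR1*, an activator of the anaphase-promoting complex, was at 0.41 and 0.50, the latter called (limma adjusted p = 0.0356), and 0.12 and not called with median scaling.

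The genes of DNA replication and nucleotide supply that E2F activators are known to drive were lower after both strands. Of 22 listed genes, 15 were called lower on the 5p array and 21 on the 3p array, and 0 higher on either. Over all genes, 6.79% were called lower and 3.52% higher on the 5p array, and 31.8% and 32.2% on the 3p array. All 22 were below −0.5 after both strands, where 15.9% and 27.2% of all genes were. Their median differences were −1.08 and −1.97, against 0.03 and 0.06 over all genes. *TYMS*, the thymidylate synthase, was lowest after *miR-486-5p*, at −1.60 (limma adjusted p = 0.0475), a level 3.04-fold lower, and was at −2.22 after *miR-486-3p*. *RRM2*, a subunit of ribonucleotide reductase, was at 2.88 and 2.95 on the mock arrays, 1.64 on the 5p array and −0.93 on the 3p array, where it was 14.4-fold lower. *CDC25A*, a phosphatase that activates cell cycle kinases, was least lowered after *miR-486-5p*, at −0.71 (limma adjusted p = 0.0575). *CDC6*, which loads the replicative helicase, was the 1 gene not called after *miR-486-3p*, at −0.85 (limma adjusted p = 0.0574), and was −0.10 with the normexp correction. Promoters were in the table for 19 of the 22, and 12 of these held the E2F letters in at least 1 promoter. The list was made of known E2F targets, so this count describes the list and was not compared with other promoters. Of the cyclin E genes, kept in the kinase list, *CCNE1* moved the other way after *miR-486-3p*, at 1.44, whereas *CCNE2* was lower, at −0.69.

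**Figure D3:**
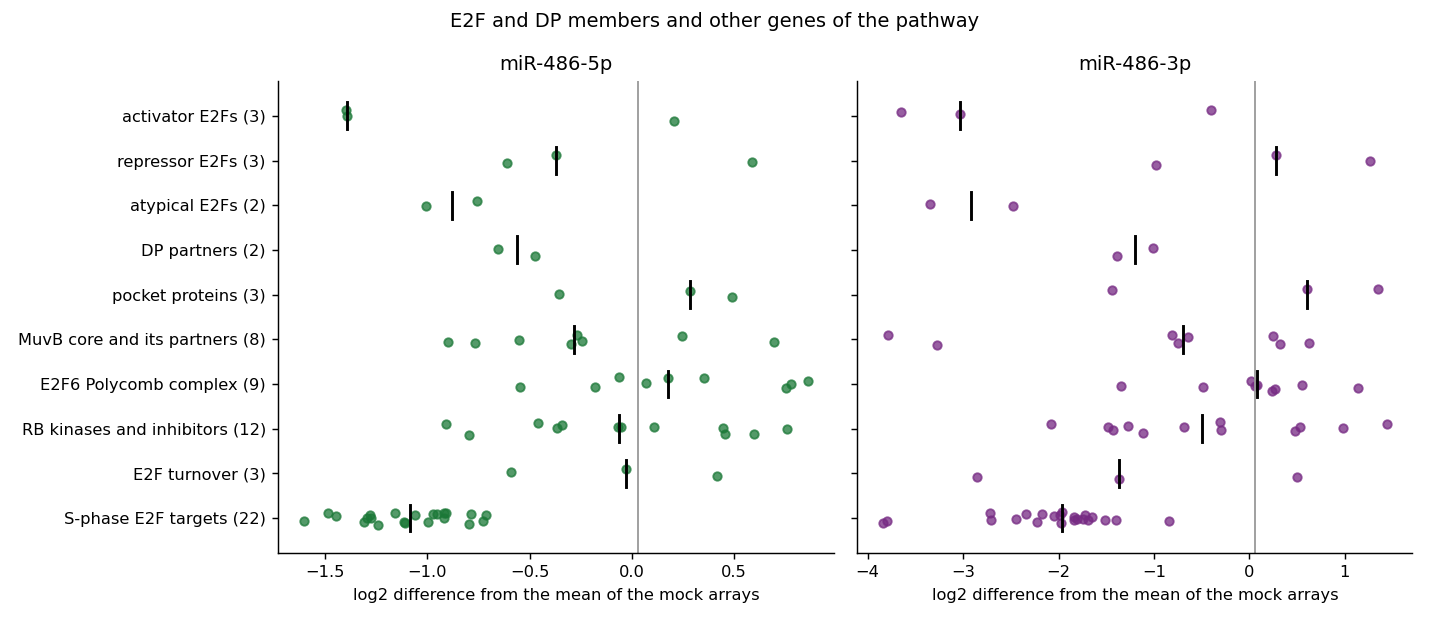
Log2 difference from the mock mean for each gene (point) of the member classes and the pathway lists, after *miR-486-5p* (left) and *miR-486-3p* (right), on different axes. The number of genes is in brackets, the black bars are list medians and the gray line is the median over all genes (0.03 and 0.06). The S-phase targets lie wholly below −0.5 in both panels, whereas the repressor E2Fs and the *E2F6* complex straddle the gray line.

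The direction of the member differences was the same under each processing tried, except for *E2F6* after *miR-486-3p*. *E2F1*, *E2F2*, *E2F7*, *E2F8*, *TFDP1* and *TFDP2* were called lower after *miR-486-3p* in each of the 8 other limma fits. On the authors' log2 values the 3p array differed from mock by −3.06 for *E2F1*, −3.59 for *E2F2*, 1.43 for *E2F5* and −3.64 for *E2F8*.

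**Figure D4:**
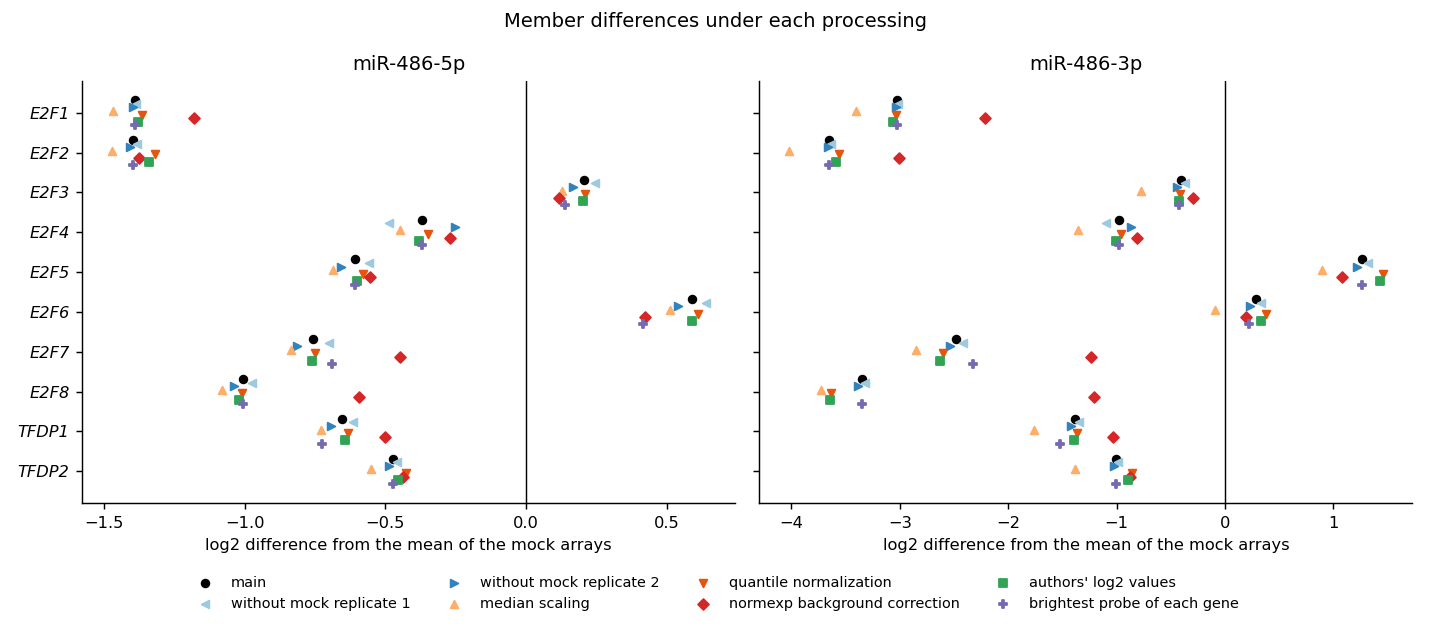
Log2 difference from mock of each member (mean of its probes) under the main processing and 7 alternatives, after *miR-486-5p* (left) and *miR-486-3p* (right), on different axes. Points of a gene lie on 1 side of the line at 0 except for *E2F6* after *miR-486-3p*, at −0.09 with median scaling. The red diamonds (normexp) lie closest to 0 for *E2F7* and *E2F8*.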

How the data were processed

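Total RNA of A549 cells was labeled with Cy3 and hybridized to 4 Agilent arrays. The authors deposited, for each array, Agilent Feature Extraction output (version 12.1.1.1 per the file headers), whose intensity values are background-corrected on a linear scale. A series table of log2 values, deposited by the authors too, covers the same arrays and followed the scanner signal in direction and scale. Its quartiles were identical on the 4 arrays (0.15, 2.76 and 6.28). The normalization and centring behind it are not given in the sources used here.

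The log2 of the processed signal minus the 75th percentile of the array (93.1 to 114 signal units) was used. Control spots and outlier spots (50 to 72 per array) were left out, and spots of a probe were averaged. Probes were named through RefSeq accessions (assembly GRCh38.p14, used for names and promoters, while the array design is annotated on hg19). A probe entered a comparison if the mock pair or the strand array had it well above background, and probes of a gene were averaged. Where a group lacked such signal, its own value or the lowest signal of any detected probe, whichever was higher, stood in as a bound. The limma fits used the measured values without this bound.

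limma 3.58.1 in R 4.3.3 (lmFit with 3 groups, eBayes, Benjamini-Hochberg) had 1 residual degree of freedom, a prior of 1.75 degrees of freedom and a prior SD of 0.0893. All 4 arrays came from 1 slide and 1 scan. Alternatives were to drop mock 1 or mock 2, to scale on medians or quantiles, to use normexp with an offset of 50 on the median spot signal, to keep dim probes or require detection on all 4 arrays, to take the brightest probe of a gene, the authors' log2 values, an intensity trend of limma, or the methods' t-test (equal variance, two-sided).

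The members and gene lists were chosen with earlier results of these data known, so the lists are no independent support. Genes named are the members, the pocket proteins, the lowest and highest gene of each other list after each strand (well above background on all arrays), and the 3 genes nearest to *E2F1* and to *E2F8*. *LIN9*, *LIN54*, *RBBP4*, *MYBL2*, *DYRK1A*, *CBX3*, *RYBP*, *YAF2*, *LIN52*, *CCND1*, *CCND2*, *CCNE2*, *CDKN1B*, *CDKN2C* and *CCNF* were named after their values were seen.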

Additional observations from a re-analysis of the deposited data

Results flagged for a closer look

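Among the 67 genes of the members and the pathway lists, 6 had the strands on opposite sides of both mock arrays and a difference between the strands that passed the limma test for every probe. How many of all genes meet this rule was not counted, so the 6 are listed without a background share. Between the strands, 27.4% of 16561 genes were called lower and 26.7% higher. *E2F5* was 1.88 higher after *miR-486-3p* than after *miR-486-5p* on the log2 scale (limma adjusted p = 0.0121). *E2F3* differed by −0.61, the mean of its 2 probes (limma adjusted p = 0.0349 and 0.0454). *CCNE1* was 1.90 higher (limma adjusted p = 0.0119) and *LIN52*, a MuvB core subunit, 0.79 higher (limma adjusted p = 0.0274). *CCND2*, which encodes a D-type cyclin, differed by −0.75 (limma adjusted p = 0.0248) and the kinase inhibitor gene *CDKN2C* by −1.22 (limma adjusted p = 0.0145). Against mock, *E2F5*, *CCNE1* and *CDKN2C* passed after *miR-486-3p* alone, and *E2F3*, *LIN52* and *CCND2* after neither strand. Each strand was measured on 1 array.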

How the results depend on the processing

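The members called lower after *miR-486-5p*, 3 in the main processing, numbered 5 with median scaling, 7 where detection on all 4 arrays was required, 7 with an intensity trend in limma and 8 with normexp. They numbered 0 without a filter on dim probes, 0 on the authors' log2 values and 0 by the methods' t-test after adjustment, which placed 6 members lower and 1 higher at an unadjusted p under 0.05, where 2319 of all genes were lower and 1960 higher. Members called higher there, 0 in the main processing, numbered 1 (*E2F6*) with median scaling, quantile normalization, normexp, detection on all 4 arrays and the trend. After *miR-486-3p* the 7 members called lower became 0 by the methods' t-test (6 lower and 2 higher unadjusted, where 3851 of all genes were lower and 3247 higher). The 2 called higher became 1 with median scaling, no filter and the brightest probe, and 0 by the t-test. Between the strands, the 7 lower became 4 without a filter. Over all genes after *miR-486-5p*, the 1088 lower and 564 higher became 2278 and 1035 with median scaling, 4324 and 4399 with normexp, 3099 and 2678 with detection on all 4 arrays, 4132 and 3679 with the trend, and 0 and 0 with no filter, the authors' values or the t-test. After *miR-486-3p* the 5291 higher became 3400 with median scaling, which moved the median of all genes from 0.06 to −0.32, and the 5233 lower and 5291 higher became 0 by the t-test. By size, *E2F6* was no longer above 0.5 after *miR-486-5p* with normexp or the brightest probe, so that members above 0.5, and repressors above 0.5, became 0. The DP partners below −0.5 after *miR-486-5p* went from 1 to 2 with median scaling, and the atypical members from 2 to 1 with normexp. Pathway genes above 0.5 went from 8 to 4 (median scaling) and 5 (normexp) after *miR-486-3p*, and from 6 to 2 (normexp) after *miR-486-5p*. No share of all genes past 0.5 under the alternatives is set beside such counts, so they describe these lists alone. The t-test takes its spread from the mock arrays probe by probe, and the cause of the other changes was not tested. Values that crossed 0 were *E2F6* after *miR-486-3p* (−0.090) and *RING1* after *miR-486-3p* (−0.30) with median scaling, and *SKP2* after *miR-486-5p* (0.019) with normexp. Between the strands they were *FZR1* (−0.22) and *CDC6* (−0.23) with median scaling, *LIN37* (0.12) and *CDC6* (−0.21) with quantile normalization, and *LIN37* (0.09) and *CDC6* (−0.21) on the authors' values. Without either mock array, the members past 0.5 kept their counts and the pathway genes below −0.5 numbered 28 to 29 after *miR-486-5p* and 37 to 38 after *miR-486-3p*, those above 0.5 numbering 6 to 7 and 8 to 10. limma then has no residual degree of freedom, so these are differences with no test. No paired analysis was possible because there is 1 array of each strand. Slide as a block was not run, since the arrays share 1 slide and 1 scan. Dim probes limit the size of a fall, as for the second *E2F7* probe after *miR-486-3p*.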
